A study of Bos taurus with 18 samples.

Results

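The comparison described here set 3 pools of bovine blastocysts from oocytes matured with miR-34c inhibitors against 3 pools from oocytes matured with negative control (NC) inhibitors, 6 of the 18 pools sequenced. Members were taken by the treatment and the replicate number in the sample labels. The oocytes of the 6 pools came from antral follicles of 2 to 4 mm of slaughterhouse ovaries, were matured in vitro (IVM) for 22 h in the presence of one of these oligonucleotides, were fertilized, and were cultured without a further dose being described. Blastocysts were collected at 8 d post insemination (dpi), and each pool held 10 embryos, so that differences between single embryos of a pool are not seen. The other 12 pools were 5 with miR-34c mimics, 3 with NC mimics and 4 controls. The controls were labelled untreated, and per the study's methods they had water in place of an oligonucleotide. These 12 pools serve to place the 6 pools, and they also entered the gene filter, the scaling and the reported edgeR fit. The labels do not say which pools shared ovaries, a bull or an IVM day, so p-values measure spread between pools, part of which may be technical. In the reported edgeR test this spread is that of all 18 pools within their groups, not of the 6 pools alone.

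MicroRNAs are short RNAs that guide Argonaute proteins to partly complementary sites, mostly in the 3′ ends of mRNAs, where they lower translation and mRNA stability. A miRNA inhibitor is a single RNA strand that pairs with the mature miRNA and keeps it from its targets, so that transcripts repressed by that miRNA can rise. The NC inhibitor is a strand that is not directed at miR-34c. The miR-34 family is induced by p53 and is known for slowing the cell cycle and for targeting transcripts of cyclins, cyclin-dependent kinases and the apoptosis inhibitor BCL2. A blastocyst holds an inner cell mass, which gives the embryo proper, and a trophectoderm, which gives most of the placenta. In pooled whole embryos, fewer cells of a type and less RNA per cell cannot be told apart.

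The deposited table lists genes by Ensembl identifier, and the gene table used here paired none of them with a symbol. Genes are therefore given by identifier, the label blastocyst was not checked against marker genes, and no statement is made on targets of miR-34c. Counts per library ranged from 2250236 to 4071640 in the inhibitor pools and from 2568629 to 3623194 in the NC inhibitor pools. Inhibitor replicate 1 was the shallowest of the 6 libraries and inhibitor replicate 3 the deepest. From 14341 to 15491 genes had a count in an inhibitor pool and from 14819 to 15429 in an NC inhibitor pool. The 10 most abundant genes of a library took from 7.46% of its counts in inhibitor replicate 2 to 14.0% in inhibitor replicate 1, a span that contained the 10.6% to 13.2% of the NC inhibitor pools. A gene without a count in a library may have had up to 3 counts, which is 1.3 CPM (counts scaled to a common library total) in inhibitor replicate 1, and such limits cover counting error only. After removal of low counts, 11082 genes were tested.

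The inhibitor pools were far less alike than the NC inhibitor pools, and inhibitor replicate 2 differed most from the rest. Each pool was compared gene by gene with the mean log2 CPM of the 3 NC inhibitor pools. In inhibitor replicate 1, 275 genes were at least 2-fold above that mean and 555 at least 2-fold below it. In inhibitor replicate 2 the numbers were 1687 above and 1600 below, which is 29.7% of the genes tested. Inhibitor replicate 3 had 130 above and 230 below, or 3.25%. As a yardstick, each NC inhibitor pool was compared with the mean of the other 2 NC inhibitor pools. By this measure 263 genes departed at least 2-fold in NC inhibitor replicate 1, 152 in replicate 2 and 269 in replicate 3. Against pairs of NC inhibitor pools in the same way, the mean number was 881 for inhibitor replicate 1, 3320 for replicate 2 and 409 for replicate 3. All 3 inhibitor pools thus departed in more genes than any NC inhibitor pool, and inhibitor replicate 3 came closest to them.

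**Figure D1:**
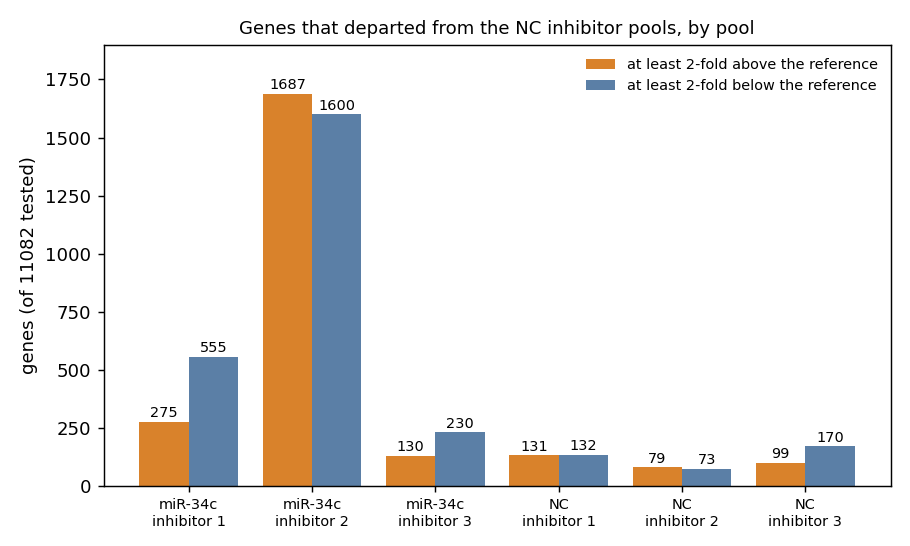
Number of genes (y axis, of 11082 tested) in each pool (x axis) that were at least 2-fold above (orange) or below (blue) the reference on the log2 CPM scale. The reference was the mean of the 3 NC inhibitor pools for the inhibitor pools and the mean of the other 2 for each NC inhibitor pool. Inhibitor replicate 2 stands out with 1687 genes above and 1600 below.

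The distances between pools gave the same order. The root mean square difference in log2 CPM over the 11082 genes was 0.40 to 0.46 between NC inhibitor pools. Between inhibitor pools it was 0.75 for replicates 1 and 3, 0.84 for replicates 2 and 3, and 1.26 for replicates 1 and 2. Inhibitor replicate 3 lay at 0.49 to 0.50 from the NC inhibitor pools and inhibitor replicate 1 at 0.58 to 0.64, both closer to each NC inhibitor pool than to any pool of their own treatment. Inhibitor replicate 2 lay at 0.98 to 1.01 from the NC inhibitor pools and was closer to inhibitor replicate 3 than to them. The 2 pools that were farthest apart were thus 2 pools of the same treatment, and 4505 genes, 40.7% of those tested, differed at least 2-fold between inhibitor replicates 1 and 2. Between any 2 NC inhibitor pools, from 309 to 518 genes differed that much.

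**Figure D2:**
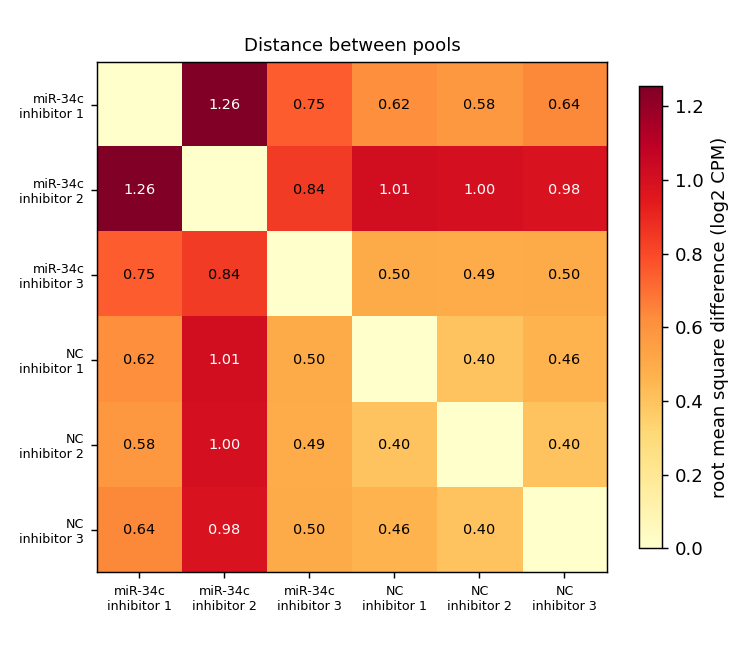
Root mean square difference in log2 CPM over 11082 genes between each 2 of the 6 pools, as a colour scale with the value in each cell. The NC inhibitor pools form a block of low values (0.40 to 0.46), and the largest value, 1.26, lies between inhibitor replicates 1 and 2.

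The unequal spread was seen in most genes and at every level of expression. The SD of log2 CPM over 3 pools had a median over genes of 0.50 in the inhibitor group and 0.19 in the NC inhibitor group. In 9195 genes (83.0%) the SD was wider in the inhibitor group, and the ratio of the 2 SDs had a median of 2.55. Beyond counting error, the relative spread between pools (the biological coefficient of variation) was 0.432 against 0.109. It was 0.316 in the control, 0.295 in the miR-34c mimic and 0.135 in the NC mimic group, so that the NC mimic pools were about as alike as the NC inhibitor pools, and the control and mimic pools lay between these and the inhibitor pools. In the genes with at least 200 CPM on average over the 6 pools, 751 in number, the median SD was 0.47 with inhibitors and 0.09 with NC inhibitors, and it was wider with inhibitors in 94.7%. In the 3062 genes under 10 CPM, where counting error is large, the medians were 0.60 and 0.34, and it was wider with inhibitors in 73.5%. An SD of at least 1 log2 unit was found in 1358 genes with inhibitors and in 53 with NC inhibitors. All but 1 of those 53 were under 10 CPM. Over the same 11082 genes, leaving out inhibitor replicate 2 lowered the median SD in the inhibitor group to 0.30, leaving out replicate 1 lowered it to 0.40, and leaving out replicate 3 raised it to 0.58. With each library thinned to the same total of 2063863 counts, the coefficients of variation were 0.427 and 0.102.

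**Figure D3:**
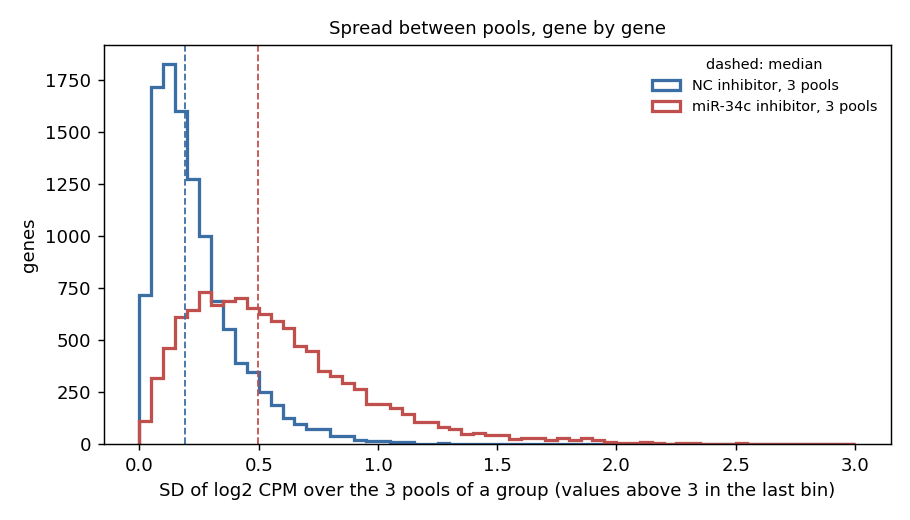
Histogram of the SD of log2 CPM over the 3 pools of a group (x axis) against the number of genes (y axis) for the NC inhibitor (blue) and miR-34c inhibitor (red) groups. Dashed lines mark the medians of 0.19 and 0.50.

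Many genes stayed level in all 6 pools. The highest and lowest of the 6 pools lay within a factor of 2 in 4734 genes (42.7%). Within the NC inhibitor group alone this held for 10228 genes (92.3%), and within the inhibitor group alone for 5880 (53.1%). ENSBTAG00000001589 was the steadiest of the genes with at least 50 CPM. It had 219, 228 and 233 CPM in inhibitor replicates 1, 2 and 3, and 222, 233 and 226 CPM in the NC inhibitor replicates. ENSBTAG00000003401 had 483, 485 and 485 CPM with inhibitors and 501, 508 and 477 CPM with NC inhibitors. Its log2 fold change was -0.03 with a standard error (SE) of 0.15. In both genes the ranges of the 2 groups overlapped.

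The most frequent pattern was that of inhibitor pools on both sides of the NC inhibitor pools. In 5216 genes (47.1%) at least 1 inhibitor pool was above all NC inhibitor pools and at least 1 other was below all of them. The reverse, NC inhibitor pools on both sides of the inhibitor pools, was found in 603 genes (5.44%). Inhibitor replicate 3 lay between replicates 1 and 2 in 3803 of the 5216 genes (72.9%). The order was replicate 1, 3, 2 from low to high in 1888 of them and replicate 2, 3, 1 in 1915. In 121 genes the inhibitor pools went at least 2-fold past the NC inhibitor range on both sides, and in 118 of these replicate 3 was again in the middle, with replicate 2 highest in 84 and replicate 1 highest in 34. Such genes have no common direction in the inhibitor group.

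Among genes with at least 50 CPM, ENSBTAG00000053048 had the widest range of this kind. It had 264 CPM in inhibitor replicate 1, 2.84 CPM in replicate 2 and 37.0 CPM in replicate 3, a 92.9-fold range. In the NC inhibitor pools it had 20.4, 80.9 and 34.0 CPM, so that this gene also varied there. In the other 12 pools it ranged from 1.35 to 116 CPM with a median of 7.06. ENSBTAG00000021829 went the other way. It had 15.5 CPM in inhibitor replicate 1, 516 CPM in replicate 2 and 131 CPM in replicate 3, against 39.3, 47.1 and 62.2 CPM in the NC inhibitor pools. In the other 12 pools it ranged from 48.8 to 550 CPM with a median of 367, and 10 of the 12 were above the highest NC inhibitor pool. Inhibitor replicate 2 was thus close to most of the other pools for this gene, and replicate 1 was lower than any of the other 17 pools. Neither gene passed the edgeR test described next (adjusted p of 0.868 and 0.842).

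The test across all genes asked whether the mean of the inhibitor pools differed from that of the NC inhibitor pools. With edgeR's quasi-likelihood test on all 18 libraries, 0 of 11082 genes were differentially expressed (DE), which required a 2-fold difference and a Benjamini-Hochberg adjusted value under 0.05. The smallest adjusted p was 0.0869, in ENSBTAG00000008389, which passed the filter only through its counts in the NC inhibitor pools. At an unadjusted p under 0.05 there were 450 genes, 4.06% of those tested, of which 335 (3.02%) were higher and 115 (1.04%) lower with inhibitors. A uniform distribution of p-values would give 554. Inhibitor replicate 2 was the pool farthest from the NC inhibitor mean in 354 of the 450 genes, and in 7218 of all 11082 genes. Without it, 167 genes had an unadjusted p under 0.05 and 44.9% of them were higher with inhibitors, against 74.4% with all pools. With the scaling computed on genes with at least 10 counts in each of the 6 libraries, 426 of the 11082 genes had such a p and 62.0% of them were higher. Without inhibitor replicate 1 there were 1907, of which 71.2% were higher.

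Other tests of the same comparison bear on the unequal spread. In limma voom with one weight per treatment, which lets the groups differ in spread, the weight was 0.483 for the inhibitor pools and 2.17 for the NC inhibitor pools, 0 genes were DE, 247 had an unadjusted p under 0.05, and the smallest adjusted p was 0.362. In DESeq2, 0 genes were DE, 537 had an unadjusted p under 0.05, and the smallest adjusted p was 0.0596. The smallest adjusted p belonged to ENSBTAG00000008389 in that voom fit and to ENSBTAG00000007554 in DESeq2. Both genes passed the filter only through the NC inhibitor pools, so that they had to differ. With one weight per pool, limma voom gave 154 DE genes, of which 49 were higher and 105 lower. In that fit inhibitor replicate 3 had a weight of 3.38, against 0.334 for replicate 1 and 0.225 for replicate 2, so that it rested mainly on the inhibitor pool that was closest to the NC inhibitor pools. The SE of the log2 fold change in edgeR had a median of 0.34 over all genes, 0.51 in genes under 10 CPM and 0.27 in genes with at least 200 CPM.

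In a minority of genes all 3 inhibitor pools lay on one side of the NC inhibitor pools, mostly by a small margin. In 586 genes (5.29% of those tested) every inhibitor pool was above every NC inhibitor pool, and in 478 genes (4.31%) every inhibitor pool was below every NC inhibitor pool, which makes 1064 genes (9.6%) without overlap. These counts describe the order of the pools in each gene and are no test of a difference. Which side was more frequent turned with the scaling of the libraries: with the scaling computed on genes with at least 10 counts in each of the 6 libraries, which moved the groups by -0.04 log2 units relative to each other, the same 11082 genes gave 453 higher and 582 lower. The gap between the nearest pools of the 2 groups had a median of 0.10 log2 units in the higher genes and of -0.11 in the lower genes. It reached 0.5 log2 units in 19 higher and 20 lower genes, and 1 log2 unit in 2 higher (0.018%) and 6 lower genes (0.0541%). In the higher genes the pool nearest to the NC inhibitor pools was inhibitor replicate 1 in 286, replicate 3 in 245 and replicate 2 in 55. In the lower genes it was replicate 1 in 203, replicate 3 in 204 and replicate 2 in 71. With the reported scaling, higher genes without overlap had a median of 35.1 CPM against 13.1 CPM in the lower ones. Of the 751 genes with at least 200 CPM, 64 (8.52%) were higher and 11 (1.46%) lower without overlap, with gaps of at most 0.24 and -0.16, and with the other scaling 44 were higher and 19 lower. Of the 3062 genes under 10 CPM, 113 (3.69%) were higher and 198 (6.47%) lower, and with the other scaling 102 and 212.

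**Figure D4:**
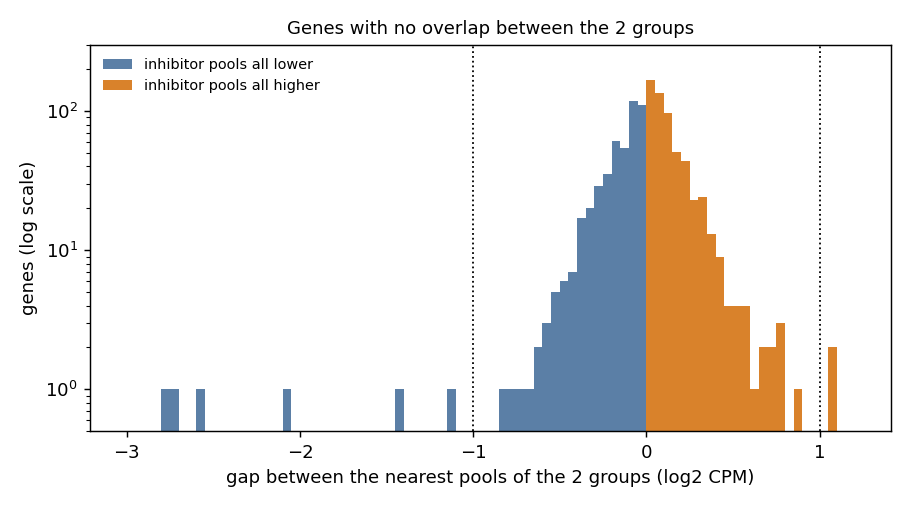
Histogram of the gap between the nearest pools of the 2 groups (x axis, log2 CPM) against the number of genes (y axis, log scale) for 586 genes with all inhibitor pools higher (orange) and 478 with all lower (blue). Dotted lines mark a gap of 1 log2 unit, which 2 higher and 6 lower genes passed.

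The size seen in single pools was rarely shared. Relative to the NC inhibitor mean, 7212 genes (65.1%) departed 2-fold in no inhibitor pool, 3312 in 1 pool, 509 in 2 pools and 49 in all 3. Of the 3312 genes that departed in a single pool, 2762 did so in inhibitor replicate 2, 413 in replicate 1 and 137 in replicate 3. In 14 of the 49 genes the direction was the same in all 3 pools. These were 6 genes above (0.0541%) and 8 below (0.0722%), with mean levels over the 6 pools from 2.15 to 7.27 CPM and from 2.14 to 5.66 CPM. None of the 8020 genes with at least 10 CPM was among them.

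Among genes with at least 10 CPM, those with the widest gap were named. ENSBTAG00000021739 had 22.0, 35.3 and 20.4 CPM in inhibitor replicates 1, 2 and 3 and 9.70, 10.3 and 11.4 CPM in the NC inhibitor replicates. This is 25.9 ± 8.19 CPM against 10.5 ± 0.881 CPM (SD, n = 3 each), a log2 fold change of 1.3 (SE 0.44, adjusted p = 0.842). ENSBTAG00000031886 had 35.0, 69.9 and 33.9 CPM with inhibitors and 18.1, 15.1 and 19.3 CPM with NC inhibitors. Its means were 46.3 ± 20.4 CPM and 17.5 ± 2.16 CPM (SD, n = 3 each), with a log2 fold change of 1.40 (SE 0.52, adjusted p = 0.842). In both genes inhibitor replicate 2 was the highest and the other 2 inhibitor pools were nearly equal. Of the other 12 pools, 10 were above the highest NC inhibitor pool for ENSBTAG00000021739 and 11 for ENSBTAG00000031886.

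On the lower side, ENSBTAG00000010069 had 6.91, 9.34 and 9.49 CPM with inhibitors and 14.6, 17.6 and 15.4 CPM with NC inhibitors. This is 8.58 ± 1.45 CPM against 15.9 ± 1.60 CPM (SD, n = 3 each), a log2 fold change of -0.87 (SE 0.47, adjusted p = 0.842). ENSBTAG00000054572 had 19, 18.3 and 19.5 CPM with inhibitors and 28.8, 30.7 and 28.2 CPM with NC inhibitors. Its means were 18.9 ± 0.597 CPM and 29.3 ± 1.31 CPM (SD, n = 3 each), with a log2 fold change of -0.63 (SE 0.28, adjusted p = 0.842). The inhibitor pools of this gene lay between 18.3 and 19.5 CPM, with replicate 2 the lowest. For both genes, 11 of the other 12 pools were below the lowest NC inhibitor pool.

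**Figure D5:**
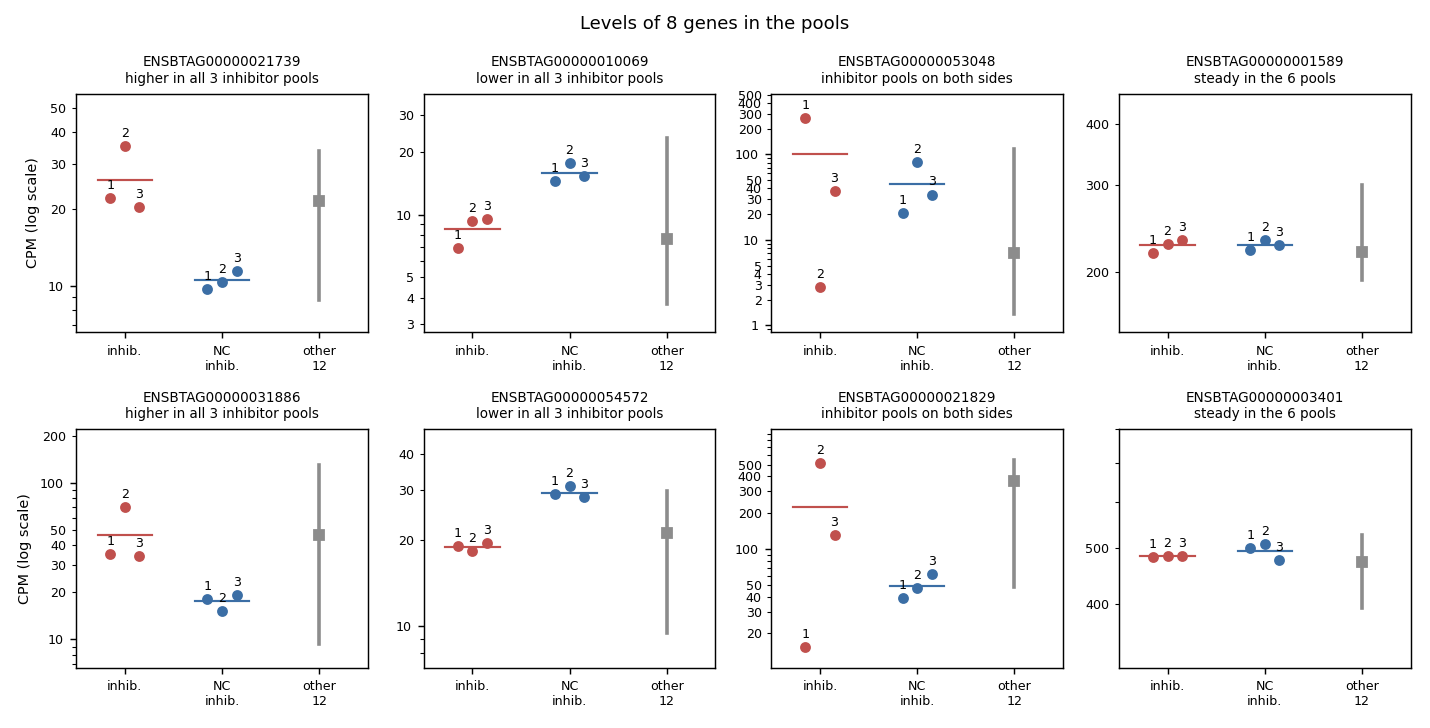
CPM (y axis, log scale, different in each panel) of 8 genes in the inhibitor pools (red) and NC inhibitor pools (blue), numbered by replicate and with the group mean as a line, and the range and median of the other 12 pools (grey). From left to right the columns show 2 genes that were higher, 2 that were lower, 2 with inhibitor pools on both sides (15.5 to 516 CPM in ENSBTAG00000021829) and 2 that were level.

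The 8 genes with a gap of at least 1 log2 unit were all scarce, and 6 of them were lower with inhibitors. Beyond the first 2 of the genes given next, they were chosen after their values were seen. In 5 of the 27270 genes listed (0.0183%), every NC inhibitor pool had at least 10 counts and every inhibitor pool at most 3, and no gene showed the reverse (0%). ENSBTAG00000007554 had 0, 1 and 0 counts in the inhibitor replicates and 23, 29 and 35 counts in the NC inhibitor replicates. It had at most 2 counts in a control pool, at most 5 in a miR-34c mimic pool, and 9 to 11 in the NC mimic pools. ENSBTAG00000008389 and ENSBTAG00000012409 had 0 counts in all inhibitor pools. The first had 21, 18 and 11 counts in the NC inhibitor pools and at most 1 in any of the other 12, and the second had 20, 15 and 11 counts and at most 4. The NC inhibitor mean was 3.56-fold the limit of 3 counts in the shallowest inhibitor library for ENSBTAG00000008389 and 3.30-fold for ENSBTAG00000012409. Both genes were picked for this contrast, so that these ratios only describe it, and single NC inhibitor pools lay below their mean. These 2 genes were thus near 0 in nearly all pools but those with NC inhibitors.

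ENSBTAG00000039035 had 3, 2 and 2 counts in the inhibitor pools, 18, 25 and 18 in the NC inhibitor pools, and at most 6 in the other 12. ENSBTAG00000049861 had 0, 2 and 2 counts in the inhibitor pools and 10, 15 and 17 in the NC inhibitor pools. It reached 45 counts in a control pool and 35 in an NC mimic pool, so that its presence was not limited to NC inhibitors. The sixth lower gene with such a gap, ENSBTAG00000001745, had 0, 1 and 4 counts with inhibitors and 24, 30 and 19 with NC inhibitors. In the NC mimic pools it had 13 to 21 counts, and in the control and miR-34c mimic pools at most 7. In both NC groups this gene had more counts than in the inhibitor pools. The 2 higher genes with such a gap were ENSBTAG00000001303 and ENSBTAG00000016272. The first had 18, 30 and 60 counts with inhibitors, which is 7.77, 12.2 and 14.2 CPM, and 13, 13 and 8 counts with NC inhibitors, which is 3.32, 3.28 and 2.86 CPM. The second had 7, 11 and 15 counts against 3, 1 and 3. Of the other 12 pools, 10 were above the highest NC inhibitor pool for the first gene and 11 for the second. The medians of the 12 were 6.70 and 3.37 CPM.

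These 8 genes were chosen for their gap in these pools, so that large fitted differences were fixed by the choice. None of the 8 passed the adjusted threshold in edgeR. The adjusted p was 0.0869 for ENSBTAG00000008389, 0.20 for ENSBTAG00000007554, 0.646 for ENSBTAG00000001745 and 0.842 for the other 5. Of the 8 genes, ENSBTAG00000007554, ENSBTAG00000008389, ENSBTAG00000012409 and ENSBTAG00000039035 were among the genes tested only through their counts in the NC inhibitor pools, so that they had to differ, and their fitted values are given as a description. ENSBTAG00000008389, ENSBTAG00000012409 and ENSBTAG00000016272 did not have enough counts to be tested with libraries thinned to one total. ENSBTAG00000001303 had a log2 fold change of 1.85 (SE 0.53). Reads shared with a near-identical gene copy were not tested.

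The other 12 pools were placed by their median relative to the means of the 2 groups. The median log2 CPM of the 12 pools was nearer to the inhibitor mean than to the NC inhibitor mean in 490 of the 586 higher genes (83.6%) and in 364 of the 478 lower genes (76.2%). Over all 11082 genes this share was 74.8%, so that the lower genes without overlap were close to the share of all genes. A mean of inhibitor pools that lie on both sides need not be near any of them.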

How the data were processed

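RNA of pools of 10 blastocysts was extracted with RNeasy Micro and sequenced as 5′-end mRNA libraries by a modified Smart-seq3xpress on an Element AVITI. The submitters' processing notes name FastQC 0.11.9, cutadapt 3.7, STAR 2.7.10a, UMI-tools 1.1.4, RSEM 1.3.3 and the build ARS-UCD1.2, and the annotation release is not given in the sources used here. The authors deposited RSEM expected counts for 27270 Ensembl genes in 18 libraries, with every value a whole number. Of these genes, 7840 had no count in any library. None of the 37063 entries of the gene table used here carries an Ensembl identifier, so 8 lists with 124 symbols were not analysed.

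Genes were filtered by treatment over all 18 libraries with filterByExpr, scaled by TMM, and tested with edgeR 4.0.16 (quasi-likelihood, R 4.3.3) as inhibitor minus NC inhibitor, with one spread per gene for all groups. A gene was called DE if p was under 0.05 after Benjamini-Hochberg adjustment and the log2 fold change was 1 or more in either direction. The SE was the log2 fold change divided by the square root of its F statistic. Log2 CPM used a prior count of 2. The gap of a gene is the distance in log2 CPM between the nearest pools of the groups. Named genes were the 2 with the widest gap each way at 10 CPM or more, the 2 with the widest inhibitor range around the NC inhibitor pools and the 2 with the narrowest range at 50 CPM or more, and genes with at least 10 counts in each pool of one group and at most 3 in each of the other, up to 2. The other 3 of these 5 genes, and those with a gap of 1 log2 unit, were added after their values were seen. Alternatives included DESeq2 1.42.0 and limma 3.58.1, and the thinning of libraries and filters with the scaling kept were added after the data were seen. The scripts were tested on simulated data. The comparison and lists were chosen with earlier results of these data known.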

Additional observations from a re-analysis of the deposited data

How the results depend on the processing

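No gene was DE in 16 of 17 other fits, nor in the reported fit by adjusted p alone, and limma voom with one weight per pool gave 154 genes. The 450 genes at an unadjusted p under 0.05 became 294 when at least 10 counts were required in every library, 723 without a filter, 264 with only the 2 groups in the fit, 247 in limma voom with one weight per group and 2455 with one weight per pool. Leaving out a pool moved them from 167 (without inhibitor replicate 2) to 1907 (without inhibitor replicate 1). The cause was not tested. The share of these genes that were higher was 74.4% in the reported fit and 53.2% to 78.0% in the fits with all pools. Deviations of same-numbered pools had correlations of 0.023, -0.064 and -0.020 over genes, within the -0.100 to 0.104 of the other pairs. With 3 pools per group, this cannot show whether same-numbered pools shared ovaries, a bull or an IVM day. A fit with the replicate block gave 0 DE genes and 308 at an unadjusted p under 0.05. Leaving out a pool gave a coefficient of variation of 0.311 to 0.567 with inhibitors and 0.0703 to 0.136 with NC inhibitors, and, with genes filtered anew, a median SD of 0.31 to 0.58 and 0.14 to 0.18. The NC inhibitor median SD was 0.16 with at least 10 counts and 0.26 without a filter. Both filters computed the scaling anew, which moved the groups by -0.04 log2 units relative to each other. Genes without overlap numbered 386 higher and 421 lower with at least 10 counts and 639 and 851 without a filter, against 586 and 478. With the reported scaling kept, a choice made after seeing the data, they were 514 and 325 with at least 10 counts and 1024 and 765 without a filter, so that the turn in direction came with the scaling. At an unadjusted p under 0.05 there were then 327 genes with at least 10 counts and 782 without a filter. Of these, 76.5% and 69.3% were higher, against 62.2% and 62.1% with the scaling computed anew. A gap of 1 log2 unit was found in 0 higher and 0 lower genes with at least 10 counts, which by construction leaves out genes that are near 0 in a pool, in 5 and 17 without a filter (6 and 17 with the scaling kept), and in 0 and 3 with libraries thinned to one total. Some of the 8 genes with such a gap were not tested with thinned libraries. With a pool left out, which makes separation easier by construction, 864 to 2613 genes were higher and 748 to 2108 lower without overlap, and 5 to 23 and 7 to 38 had such a gap. The log2 fold change of ENSBTAG00000053048 (1.15) was -0.33 with one weight per group, -0.28 with one per pool, and -1.12 to 1.89 with a pool left out. That of ENSBTAG00000001589 (-0.0037) was 0.0012 with median-of-ratios scaling, 0.0017 in DESeq2, 0.018 with one weight per pool, and -0.026 to 0.020 with a pool left out. Of the 8 genes with a gap of 1 log2 unit, which were chosen for their separation in these pools, 6 were DE with one weight per pool, 4 of them tested only through their NC inhibitor counts, and none was in another fit. The small number of pools, and the low counts of the scarce genes, limit what could be seen.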
